A study of Mus musculus with 16 samples.

Results

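Marker genes of the notochordal cells of the nucleus pulposus were followed in tail discs of mice with a mutant Adam8 gene and of wild-type mice, with and without disc injury. The set was chosen by name and held 9 genes of the 49315 in the table: brachyury (listed as T), Noto, Foxa1, Foxa2, Krt8, Krt18, Krt19, Cd24a and Cdh2. All 9 were found, and 8 were tested, because Noto did not reach 1 TPM in at least 3 libraries. Bulk RNA sequencing had been done on 16 mice, with 4 tail discs of a mouse pooled in each library. There were 3 intact and 4 injured wild-type mice, and 4 intact and 5 injured mice that carry the Adam8EQ allele of the membrane protease gene Adam8. The series title names DBA, an inbred strain, as the comparison. The labels describe the allele no further and give no age, sex, kind of injury or time after it. The discs had been cut free of the cartilaginous endplate, and each library still holds the other cell types of the disc, annulus cells among them.

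The notochord is the rod of cells along which the embryonic spine forms, and its cells become the nucleus pulposus, the gel core of each disc. In mice these large vacuolated cells stay in the disc into adult life and keep an unusual mix of notochordal transcription factors and epithelial filament proteins. Brachyury and Noto are transcription factors of the notochord, and Foxa1 and Foxa2 are forkhead factors of notochord and endoderm. Krt8 is a type II keratin that pairs with the type I keratins Krt18 and Krt19 to form filaments of simple epithelia. Cd24a is a small glycoprotein anchored in the membrane, and Cdh2 is N-cadherin, which joins neighbouring cells.

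Levels are TPM, reads per kilobase of transcript scaled to a fixed total per library, so levels of different genes can be set side by side. Differences are between group means of log2(TPM + 1), a scale that understates differences of genes with low levels such as Foxa1 and Foxa2. The reads that the TPM values imply ranged from 10196951 to 24824252 per library, and the deepest library was that of injured mutant mouse 1. This library also stood apart in several markers, and the main differences of the markers are also given without it. In bulk tissue, fewer notochordal cells and less marker RNA per cell cannot be told apart. Nothing in the labels says how mice were housed or bred together, so the tests measure the spread between these 16 mice.

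The start regions of 3 members that moved together across mice (brachyury, Krt8 and Krt18) are shown, since Krt8 and Krt18 lie close together in the genome. Krt8 lies on chromosome 15 at 101996698 to 102004482 on the minus strand and Krt18 at 102028180 to 102032027 on the plus strand (GRCm38), with 23.7 kb between them. Brachyury lies on chromosome 17 at 8434423 to 8442496 on the plus strand. The sequences come from RefSeq (GRCm38.p6), run 5′ to 3′ along the gene's strand, and stop short of annotated exons. They are chr17:8434173-8434422 for brachyury, chr15:102004483-102004592 for Krt8 (minus strand) and chr15:102027966-102028179 for Krt18. Capitals mark matches to the GC box, GGGCGG on either strand.
T: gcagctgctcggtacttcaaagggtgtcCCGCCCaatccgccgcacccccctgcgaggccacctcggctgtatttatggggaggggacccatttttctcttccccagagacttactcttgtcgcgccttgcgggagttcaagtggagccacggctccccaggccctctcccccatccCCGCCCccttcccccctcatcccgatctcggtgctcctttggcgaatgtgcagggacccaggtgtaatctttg
Krt8: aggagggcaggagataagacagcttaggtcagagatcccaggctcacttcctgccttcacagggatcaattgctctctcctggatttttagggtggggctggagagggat
Krt18: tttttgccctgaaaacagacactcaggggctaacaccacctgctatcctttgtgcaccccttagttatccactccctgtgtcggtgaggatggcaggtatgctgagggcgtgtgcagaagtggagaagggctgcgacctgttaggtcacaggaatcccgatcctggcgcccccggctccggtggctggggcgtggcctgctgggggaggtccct

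The 250 bases before each RefSeq start site were searched on both strands for 4 motifs, none of which overlapped another match in these 3 genes. Of these bases, 140 for Krt8 and 36 for Krt18 lie in annotated exons and are not shown above. The brachyury region held 2 GC boxes, 222 and 73 bases before the start, both on the opposite strand (CCGCCC above). Krt8 and Krt18 held no match to the GC box, to a forkhead site (TGTTTAC), to a T-box site (TCACACC) or to an AP-1 site (TGANTCA). Foxa1 held 1 forkhead match, 141 bases before the start, and 3 GC boxes. Among 32851 regions of the same length, 32.74% held a GC box, 3.17% a forkhead match, 3.33% a T-box match and 6.75% an AP-1 match. Entries were used for 6 of the 9 members. A match describes letters in this window and is not a binding site.

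In intact discs the markers spanned a wide range. Brachyury was among the most abundant transcripts of the tissue, at a mean of 2742 TPM over the 7 intact libraries, rank 27 of 49315 genes. Cd24a followed at 1392 TPM (rank 48), and Krt19 at 614.4 TPM and Krt8 at 611.8 TPM held ranks 124 and 125. Cdh2 averaged 123.8 TPM and Krt18 39.03 TPM. The forkhead factors were far lower, Foxa1 at 5.962 TPM and Foxa2 at 3.493 TPM. Noto ranged from 0 to 0.785 TPM over all 16 libraries, which corresponds to 0 to 4 reads, and was listed at 0 in 9 of them. The 7 intact libraries held 14 Noto reads together and the 9 injured ones held 2, and Noto was not tested. Brachyury, Cd24a, Krt19 and Krt8 were thus the most abundant members of the set. Noto and also Shh, a ligand made by the notochord (0 to 0.485 TPM), were at or near 0.

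Injury in the mutants came with lower levels of 4 of the 8 tested markers: brachyury, Krt8, Krt19 and Cdh2. All 8 differences were below 0. Over all 24188 tested genes, 30.8% were called in this comparison and 17.7% were called lower, so many genes besides the markers fell. The median difference of the 8 markers was -1.75 on the log2 scale, against -0.08 for all tested genes. Without injured mutant 1 the same comparison again called 4 markers lower, with a median of -1.27 and 14.7% of all tested genes called lower.

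Brachyury stood at 2634, 2828, 1789 and 2916 TPM in intact mutants 1 to 4. It was 21.5, 593, 115, 1568 and 721 TPM in injured mutants 1 to 5. Every injured mutant lay below every intact one, and the injured mice themselves ranged from near the intact level to almost none. Groups without overlap in the lower direction made up 15.3% of all tested genes here, and brachyury was the only one of the 8 markers among them. It fell by 3.15 ± 1.01 on the log2 scale (SE, n = 4 and 5, limma adjusted p 0.0178). Leaving out injured mutant 1, it fell by 2.24 ± 0.69 (limma adjusted p 0.0203), and the call held with any 1 of the 16 mice left out.

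**Figure D1:**
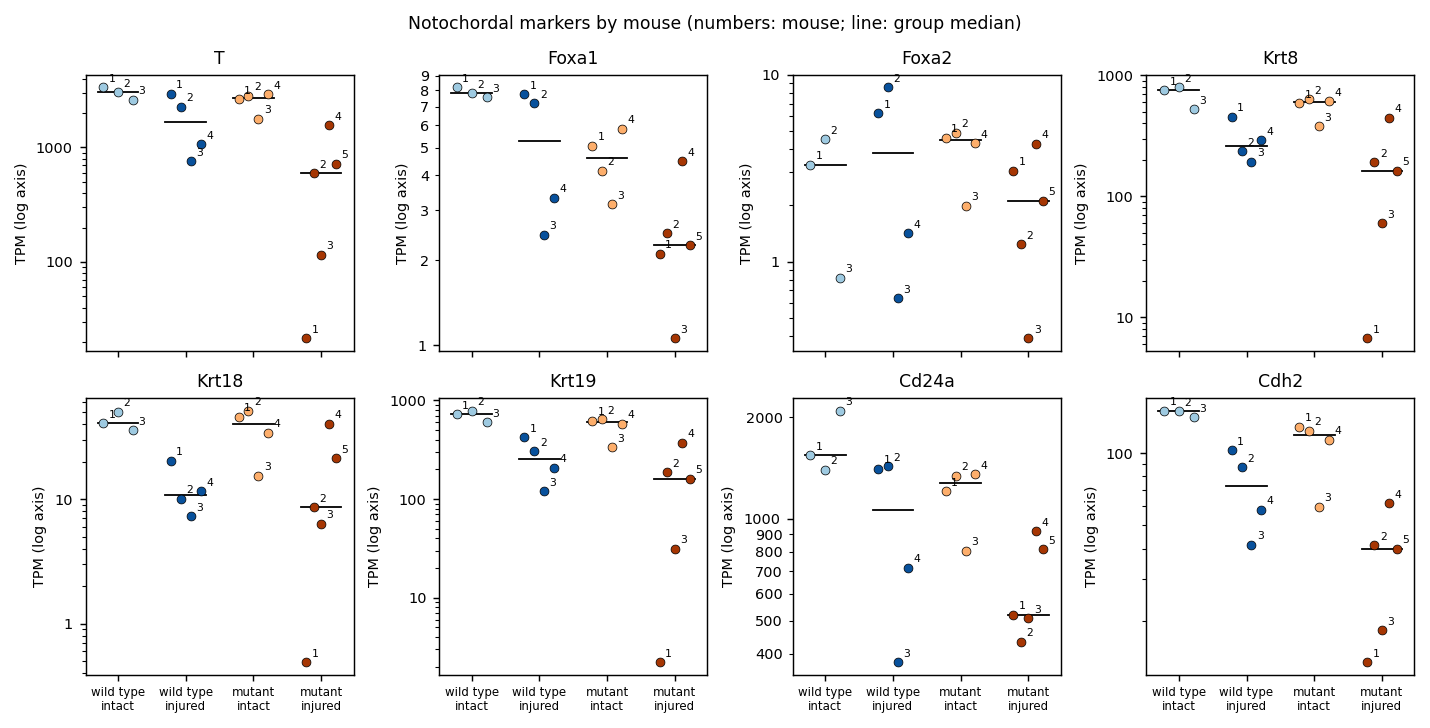
TPM (log axis) of the 8 tested markers in each mouse, grouped by genotype and treatment; numbers are the mouse numbers and lines are group medians. Brachyury (T) in injured mutants, from 21.5 to 1568 TPM, lies below all 4 intact mutants, while Foxa2 overlaps between all groups.

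In the keratins too, injured mutants 1 and 3 were the lowest and injured mutant 4 the highest of their group. Krt8 was 589, 634, 381 and 607 TPM in intact mutants and 6.69, 192, 60.0, 445 and 163 TPM in injured ones. Krt19 was 623, 648, 337 and 582 TPM in intact mutants and 2.23, 187, 31.4, 373 and 161 TPM in injured ones. In both keratins, 4 of 5 injured mutants were below all intact ones, and injured mutant 4 overlapped intact mutant 3. Krt8 fell by 2.56 ± 0.90 (SE, limma adjusted p 0.0277) and Krt19 fell by 3.02 ± 1.11 (SE, limma adjusted p 0.0329). Without injured mutant 1 they fell by 1.67 ± 0.50 (Krt8) and fell by 1.94 ± 0.65 (Krt19) (limma adjusted p 0.0188 and 0.0275). Both calls were lost when intact mutant 1, 2 or 4 or injured mutant 3 was left out, with limma adjusted p between 0.0581 and 0.0757, and that of Krt19 also without the filter on low values (limma adjusted p 0.0510).

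Krt18, the scarcer type I partner, was 45.9, 51.2, 15.4 and 34.1 TPM in intact mutants and 0.4931, 8.62, 6.34, 40.2 and 21.3 TPM in injured ones. Injured mutants 4 and 5 lay within the intact range, and the value of injured mutant 1 rests on 4 reads. The difference of -1.80 ± 0.78 missed the threshold (SE, limma adjusted p 0.0650), and without injured mutant 1 it was -1.11 ± 0.55 (limma adjusted p 0.115). It passed with limma's voom on the implied reads (limma adjusted p 0.0282, an alternative chosen after seeing the data) and without intact mutant 3, injured mutant 4 or injured mutant 5. Copies of near-identical sequence exist for the pair: a Krt8 pseudogene matches Krt8 at 98.62% over 941 bases and reached 2.66 TPM at most, and a processed pseudogene matches Krt18 at 90.45% over 1267 bases. The lowest keratin values are therefore uncertain where reads could be split between copies, and a long noncoding RNA overlaps Krt8 on the other strand.

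Cdh2 was 129.0, 123.9, 59.8 and 113.5 TPM in intact mutants and 13.5, 41.4, 18.4, 61.9 and 40.1 TPM in injured ones. Only injured mutant 4 reached the range of the intact mice, just above intact mutant 3. N-cadherin fell by 1.71 ± 0.43 (SE, limma adjusted p 0.00534), the smallest adjusted p of the markers, and the call held with any 1 of the 16 mice left out. An antisense transcript overlaps Cdh2, and the use of strand in counting is not given in the sources used here.

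Cd24a ranged from 806 to 1358 TPM in intact mutants, and was 522, 433, 509, 920 and 813 TPM in injured ones. The injured mice were thus closer to each other than for brachyury or the keratins, and injured mutants 4 and 5 overlapped the lowest intact mouse. Its difference of -0.91 ± 0.39 missed the threshold (SE, limma adjusted p 0.0652). With only the 2 mutant groups in the fit, Cd24a passed (limma adjusted p 0.0282), whereas brachyury, Krt8 and Krt19 did not (limma adjusted p 0.0524, 0.0781 and 0.0871). Which markers are called in mutants therefore depends on whether the wild-type mice share in the estimate of the spread.

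The forkhead factors were not called. Foxa1 was 5.08, 4.14, 3.15 and 5.83 TPM in intact mutants and 2.11, 2.49, 1.06, 4.48 and 2.26 TPM in injured ones, so that 4 of 5 injured mice were below all intact ones. The difference was -0.72 ± 0.31 (SE, limma adjusted p 0.0900). Foxa2 was 4.61, 4.91, 2.00 and 4.31 TPM in intact mutants and 3.06, 1.24, 0.388, 4.27 and 2.12 TPM in injured ones, with a difference of -0.72 ± 0.57 (SE, limma adjusted p 0.329). These levels rest on 11 to 63 reads for Foxa1 and 3 to 42 reads for Foxa2 in mutants, and the genes share a stretch of 188 bases at 90.96% identity.

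The mutant libraries carry names with 2 different beginnings, A8 for mice 1 and 2 of each treatment and M for the rest, while all wild-type names begin with D. What the names stand for is not stated, and between genotypes name and genotype cannot be told apart. Within the mutants named A8, brachyury differed by -4.56 ± 1.40, and within those named M by -2.17 ± 1.03 (SE, limma adjusted p 0.0346 and 0.175). Krt8 differed by -3.99 ± 1.30 and -1.55 ± 0.75, Krt19 by -4.69 ± 1.65 and -1.83 ± 0.95, and Cdh2 by -2.36 ± 0.56 and -1.18 ± 0.55. The A8 set includes injured mutant 1, with 21.5 TPM of brachyury. Injured mutant 2, also named A8, had 593 TPM, within the 115 to 1568 TPM of the injured mutants named M. The M set includes intact mutant 3, with 1789 TPM the lowest intact mutant. The direction was the same in both sets of names for all 8 markers. Of the 8, 5 were called within A8, with 2 intact and 2 injured mice and 15.6% of all tested genes called. Within M 0 were called, with 2 intact and 3 injured mice and 3.16% of all tested genes called. Both fits also held all wild-type mice, so the SE and adjusted p do not rest on the mutants of 1 name type alone.

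**Figure D2:**
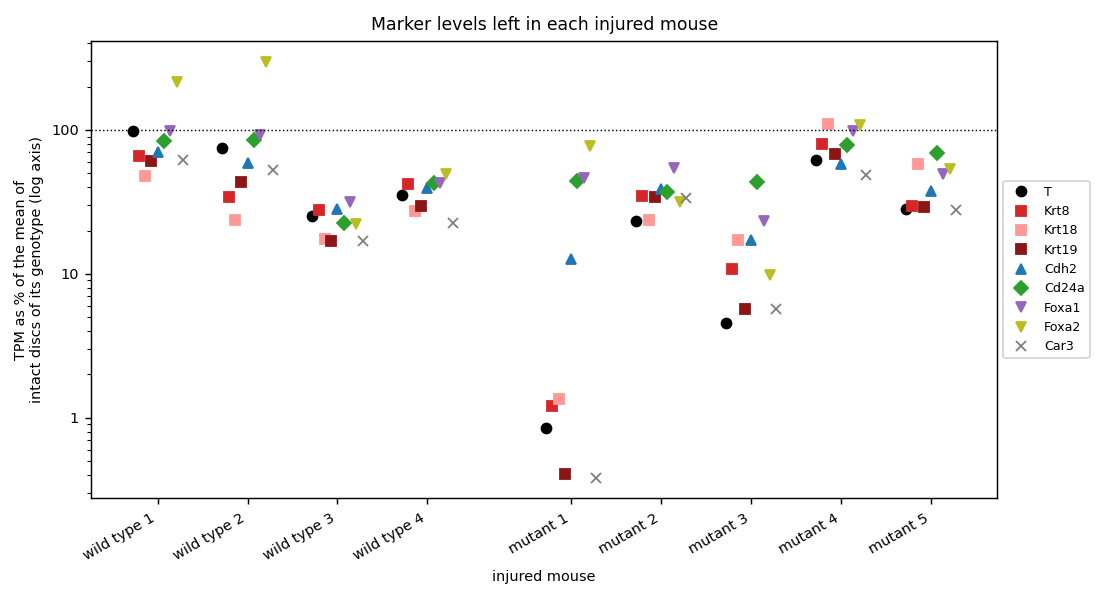
TPM in each injured mouse as a percentage of the mean of the intact discs of its genotype (log axis; the dotted line is 100%), for the 8 tested markers and Car3. In injured mutant 1, brachyury (T) and the keratins are between 0.408% and 1.35% while Cd24a is at 44.3%.

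Set against the mean of the intact mutants, the injured mice kept very different shares of the markers. Injured mutant 4 kept 61.7% of brachyury, 80.5% of Krt8 and 68.1% of Krt19. Injured mutants 2 and 5 kept between 23.3% and 34.7% of these 3 genes. Injured mutant 3 kept 4.54% of brachyury, 10.9% of Krt8 and 5.73% of Krt19. In injured mutant 1 the shares were 0.845% for brachyury, 1.21% for Krt8, 1.35% for Krt18 and 0.408% for Krt19, in the deepest library of the series. The same mouse kept 12.7% of Cdh2, 44.3% of Cd24a, 46.4% of Foxa1 and 77.3% of Foxa2. Its 6 cartilage genes ranged widely: Comp, a matrix protein of cartilage and tendon, stood at 6.80% of the intact mean, aggrecan (Acan) at 72.0%, Matn3 at 74.0%, Col2a1 at 132.5%, Sox9 at 148.9% and Hapln1 at 390.2%. It was the lowest of the 16 libraries for 5 of the 8 markers, and its ratio of Cd24a to brachyury was 24.3, against 4.41 in injured mutant 3 and 0.587 to 1.13 in the other injured mutants, 0.450 to 0.796 in intact discs and 0.477 to 0.671 in injured wild-type discs.

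In wild-type mice injury gave 0 called markers of 8 by limma with adjustment over all tested genes, in a comparison that called 0.116% of all genes. Still, 7 of 8 differences were below 0 and the median was -1.03, against 0.01 for all tested genes. By unadjusted limma p under 0.05, 3 markers passed (Krt18, Cd24a and Cdh2), where 17.2% of all genes did. With only the wild-type groups in the fit, Krt8, Krt18, Krt19 and Cdh2 had an unadjusted limma p under 0.05 (0.0006 to 0.0067) and Cd24a did not (0.0887), where 14.7% of all genes did, and 0 passed the adjustment. With voom on the implied reads 0 passed the adjustment as well. For Krt8, Krt18, Krt19 and Cdh2 all 4 injured mice lay below all 3 intact mice, which held in the lower direction for 6.34% of all tested genes.

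Krt18 was 40.7, 50.1 and 35.7 TPM in intact and 20.3, 10.1, 7.32 and 11.6 TPM in injured wild-type mice. The injured values kept 29.2% of the intact mean, a difference of -1.77 ± 0.88 (SE, limma adjusted p 0.278). Krt8 stood at 752, 798 and 521 TPM in intact and 454, 235, 193 and 290 TPM in injured mice, a difference of -1.29 ± 1.02 (SE, limma adjusted p 0.480). Krt19 stood at 723, 787 and 599.5 TPM in intact and 426, 305, 119.5 and 208 TPM in injured mice, a difference of -1.55 ± 1.26. In none of the 3 keratins did the groups overlap, and the SE comes from a fit in which all 4 groups share 1 spread. Cdh2 stood at 150.2, 149.3 and 140.7 TPM in intact and 102.9, 87.1, 41.5 and 58.1 TPM in injured mice, a difference of -1.09 ± 0.49 (SE, limma adjusted p 0.245).

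The other wild-type values split the injured mice. Brachyury was 3370, 3030 and 2623 TPM in intact mice and 2954, 2265, 759.6 and 1069 TPM in injured ones. Injured mouse 1 lay within the intact range, and mice 3 and 4 had 25.3% and 35.5% of the intact mean. Foxa1 had the same order, with 7.73 and 7.20 TPM in injured mice 1 and 2 and 2.46 and 3.33 TPM in mice 3 and 4, against 7.54 to 8.20 TPM in intact discs. Foxa2 reached 6.21 and 8.59 TPM in injured mice 1 and 2, above the intact values of 3.29, 4.51 and 0.818 TPM, and 0.636 and 1.41 TPM in mice 3 and 4. Cd24a was 1545, 1398 and 2089 TPM in intact mice and 1409, 1432, 378 and 717 TPM in injured ones. For these 4 genes the differences were -0.97 ± 1.15 (brachyury), -0.63 ± 0.36 (Foxa1), 0.21 ± 0.65 (Foxa2) and -0.94 ± 0.44 (Cd24a), none past the threshold (SE, limma adjusted p 0.262 to 0.882). The sign of the Foxa2 difference turned to -0.26 without intact mouse 3, and to -0.06 or -0.20 without injured mouse 1 or 2.

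Between genotypes, intact discs gave 0 called markers of 8, where 0.0165% of all genes were called, and 0 had an unadjusted limma p under 0.05 (3.78% of all genes). With voom 0 passed as well. Foxa1, Cd24a and Cdh2 were lower in all 4 intact mutants than in all 3 intact wild-type mice, which held in the lower direction for 3.41% of tested genes. Foxa1 spanned 3.15 to 5.83 TPM in mutants and 7.54 to 8.20 TPM in the wild type, a difference of -0.70 ± 0.36 (SE, limma adjusted p 1). Cd24a differed by -0.52 ± 0.44 and Cdh2 by -0.52 ± 0.49. Brachyury, the keratins and Foxa2 overlapped, with differences from -0.40 to 0.45.

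Among injured discs, all 8 markers had a lower mean log2 level in mutants than in the wild type, and 0 were called by limma, where 0.918% of all genes were called. For Krt18 (-0.34 ± 0.78) this direction turned without injured mutant 1 (0.35 ± 0.55) and with only mutants named M (0.59 ± 0.60), and its mean TPM was higher in injured mutants (15.4 against 12.3). The median difference was -0.96, against -0.09 for all genes. Unadjusted limma p was under 0.05 for 3 markers (brachyury, Foxa1 and Cdh2), as for 20.3% of all genes, and voom called 0. No marker separated the groups, as 3.86% of tested genes did in the lower direction: brachyury spanned 21.5 to 1568 TPM in mutants and 759.6 to 2954 TPM in the wild type. Its difference was -2.44 ± 1.01 (SE, limma adjusted p 0.157), and Cdh2 differed by -1.14 ± 0.43 (SE, limma adjusted p 0.128). Without injured mutant 1 the brachyury difference was -1.53 ± 0.69, that of Krt8 went from -1.60 to -0.70 and that of Krt19 from -1.87 to -0.79, and the median of the 8 was -0.73. Without injured wild-type mouse 3, which had the lowest Cd24a of all libraries, Cdh2 and Foxa1 passed (limma adjusted p 0.0494 and 0.0483), in a fit that called 9.5% of all genes. Within the mutants named A8 the brachyury difference was -3.73 ± 1.21, and within those named M it was -1.59 ± 0.86.

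Whether injury acted differently in the genotypes was tested by the interaction term, which called 0 of the 8 markers and 0% of all genes. By unadjusted limma p under 0.05, 0 markers passed, against 8.18% of all genes. The interaction was -2.18 ± 1.52 for brachyury (SE, limma adjusted p 0.704), -1.48 ± 1.68 for Krt19 and -1.27 ± 1.36 for Krt8. Without injured mutant 1 these values were -1.27 ± 1.01, -0.39 ± 0.95 and -0.38 ± 0.74. Calls in mutants beside none in the wild type are therefore not shown to be a difference between genotypes. Over the 4 groups, mean levels ran from intact wild type through intact mutant and injured wild type to injured mutant for brachyury, Krt8, Krt19, Cd24a and Cdh2. Neighbours in that order overlapped for these genes except intact wild type and intact mutant in Cd24a and Cdh2.

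**Figure D3:**
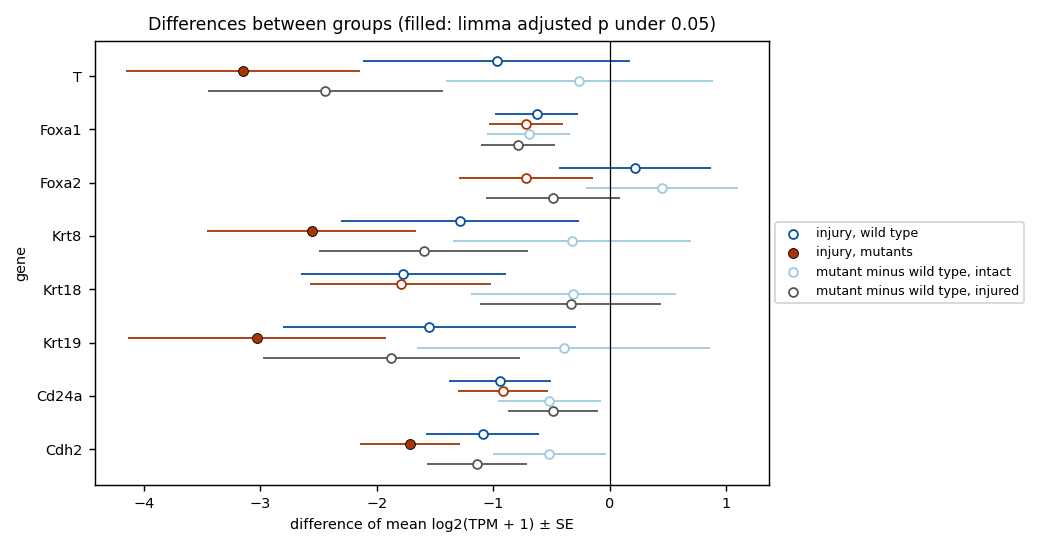
Differences of mean log2(TPM + 1) with their SE for the 8 tested markers in 4 comparisons; filled points have a limma adjusted p under 0.05. The filled points are brachyury (T, -3.15), Krt8 (-2.56), Krt19 (-3.02) and Cdh2 (-1.71), all for injury in mutants.

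Type I and type II keratin chains pair with each other in filaments. The balance of Krt18 and Krt19 to Krt8 was therefore examined within each library, where scaling cancels in ratios of TPM. Krt18 alone was a small fraction of Krt8, from 3.80% to 13.0% over the 16 libraries with a median of 5.94%. Krt19 was 33.4% to 130.1% of Krt8, with a median of 96.1%. The sum of Krt18 and Krt19 over Krt8, a quantity looked at after the values were seen, had a median of 1.02. It spanned 0.927 to 1.22 in intact discs, 0.659 to 1.34 in injured wild-type discs and 0.407 to 1.12 in injured mutant discs. The sum of Krt18 and Krt19 thus stayed near Krt8 in intact discs, and the ratio spread more in injured ones. It was lowest in injured mutant 1, where the values rest on 24 reads of Krt19 and 76 of Krt8. Krt80, another type II keratin (141.6 to 235.1 TPM in intact discs), is not in this ratio. The balance of all type I and type II transcripts was not examined.

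**Figure D4:**
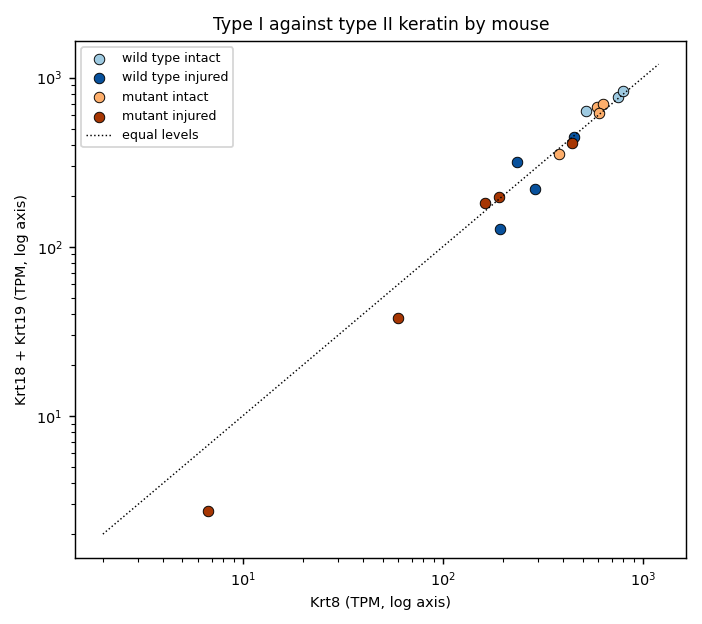
Sum of Krt18 and Krt19 against Krt8 in each mouse (TPM, log axes); the dotted line marks equal levels and colours mark the 4 groups. Intact discs lie along the line (ratio 0.927 to 1.22), and injured mutant 1, at the lower left, lies below it (0.407).

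The share of Krt18 within the pair differed most between injured discs of the genotypes. Krt18 was 4.48%, 4.28%, 3.80% and 4.00% of Krt8 in injured wild-type mice and 7.37%, 4.49%, 10.6%, 9.03% and 13.0% in injured mutants. Every injured mutant was thus above every injured wild-type mouse, though injured mutant 2 (4.491%) was almost level with injured wild-type mouse 1 (4.482%). The value of injured mutant 1 rests on 4 reads of Krt18. On the log2(TPM + 1) scale the ratio was higher in mutants by 1.26 (exact two-sided permutation p 0.0159, the smallest that 5 against 4 mice allow). This did not pass over the 8 ratio tests (adjusted p 0.127). The added 1 raises the ratio most where levels are low, as in injured mutant 1 (0.4931 TPM of Krt18 and 6.69 TPM of Krt8). With each mouse left out in turn the log2 difference was 1.05 to 1.54. In the wild type the ratio differed by -0.49 after injury (exact permutation p 0.0571, the smallest that 4 against 3 mice allow, adjusted p 0.229), from 5.42%, 6.28% and 6.86% in intact discs. None of the 8 adjusted p-values was under 0.05, and the Krt19 to Krt8 ratio had exact p of 0.127 or more in each comparison.

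Other genes of the keratin network were tested from a list of 13 genes, of which 11 could be tested. Injury in mutants came with lower levels of 9 of the 11 and higher levels of 0 by limma, where 17.7% of all tested genes were called lower. The median difference was -1.70, against -0.08 for all tested genes. Without injured mutant 1, 7 of the 11 were called lower and the median was -1.34. Desmoplakin (Dsp), which ties keratin filaments to desmosomes, was 173.8, 195.7 and 156.9 TPM in intact wild-type mice and 125.4 to 215.0 TPM in intact mutants. In injured mutants it was 7.48, 41.2, 18.1, 110.3 and 55.7 TPM, below all intact mutants, as for 15.3% of all tested genes. It fell by 2.34 ± 0.60 (SE, limma adjusted p 0.00587). As for Krt8, injured mutants 1 and 3 were the lowest and injured mutant 4 the highest of their group. The other desmosome genes that fell were plakophilin 2 (Pkp2, -1.94 ± 0.48), desmoglein 2 (Dsg2, -1.64 ± 0.47) and desmocollin 2 (Dsc2, -1.92 ± 0.57). Periplakin (Ppl) and envoplakin (Evpl), which crosslink filaments at the cell edge, fell by 1.98 ± 0.25 (Ppl) and fell by 0.95 ± 0.36 (Evpl).

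Further keratins moved with them. Krt80, a type II keratin, was 178.6, 212.5, 141.6 and 178.0 TPM in intact mutants and 8.17, 68.5, 35.6, 139.4 and 64.8 TPM in injured ones. The groups did not overlap, as for 15.3% of all tested genes in the lower direction. The highest injured value (139.4 TPM) was almost level with the lowest intact value (141.6 TPM). Krt80 fell by 1.93 ± 0.63 (SE, limma adjusted p 0.0199). Krt7 fell by 1.70 ± 0.56 and Krt20 fell by 1.30 ± 0.47, both from lower levels. Plakoglobin (Jup, 0.08 ± 0.37) and plectin (Plec, 0.51 ± 0.22) were not called. In the wild type 0 of the 11 were called and 3 had an unadjusted limma p under 0.05 (17.2% of all genes), with 10 of 11 differences below 0.

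**Figure D5:**
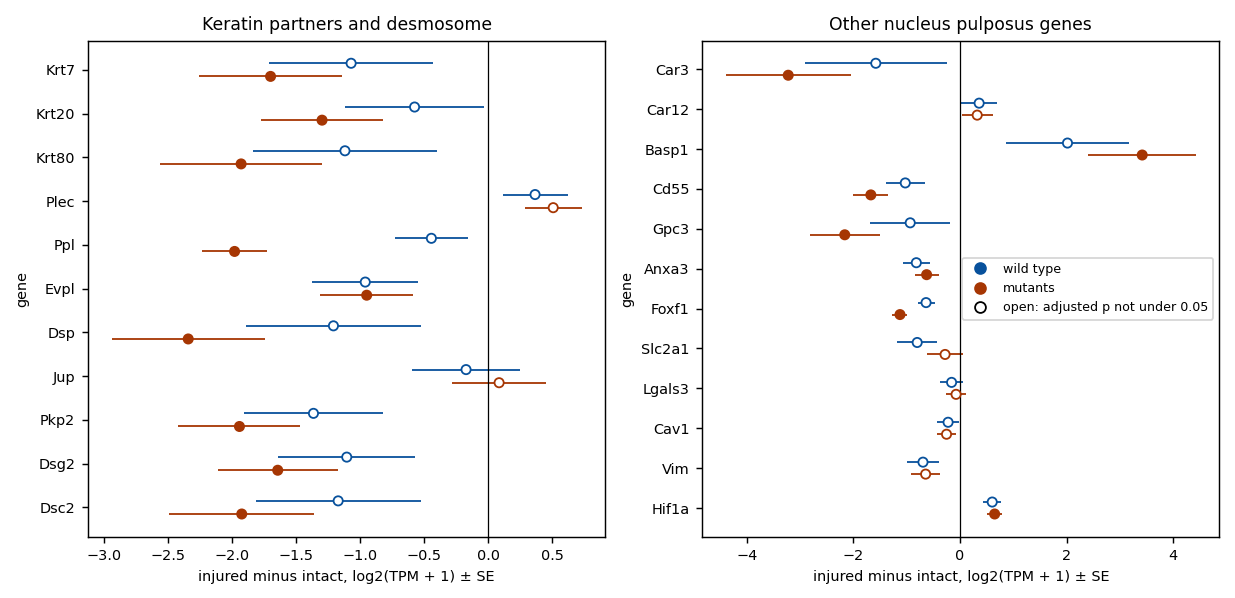
Injured minus intact difference of log2(TPM + 1) with its SE for keratin partners and desmosome genes (left) and other nucleus pulposus genes (right), in wild type (blue) and mutants (red); filled points have a limma adjusted p under 0.05. In mutants 9 of 11 keratin partners fell, while Basp1 (3.42) and Hif1a (0.65) rose among the other nucleus pulposus genes.

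A second list held 13 other genes known from the nucleus pulposus, 12 of them tested. In mutants 5 fell, 2 rose and 5 were not called, beside 30.8% of all tested genes called. Without injured mutant 1, 4 fell and 2 rose. Car3, a carbonic anhydrase, was 9247, 9402, 3696 and 7895 TPM in intact mutants and 29.0, 2538, 432, 3678 and 2109 TPM in injured ones. All injured mutants lay below all intact ones, as for 15.3% of all tested genes, but injured mutant 4 was almost level with intact mutant 3. Car3 fell by 3.22 ± 1.17 (SE, limma adjusted p 0.0331). The other falls were Cd55, which limits complement (-1.67 ± 0.33), the heparan sulfate proteoglycan glypican 3 (Gpc3, -2.16 ± 0.66), Anxa3 (-0.63 ± 0.23) and the forkhead factor Foxf1 (-1.12 ± 0.14). Basp1, a membrane protein found in neurons and other cells, rose by 3.42 ± 1.01 from 0.511 to 1.51 TPM in intact mutants to 4.41 to 127.6 TPM in injured ones. Hif1a, the oxygen-regulated factor, rose by 0.65 ± 0.14. Car12, Slc2a1, Lgals3, Cav1 and Vim were not called, so the list did not move as one. In the wild type 0 of the 12 were called and 5 had an unadjusted limma p under 0.05 (17.2% of all genes).

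Cdh2 was also set beside other cadherins and the catenins that link them to actin, 9 of which were tested. Injury in mutants gave 2 lower and 1 higher, a share near the 30.8% of all tested genes called. Cdh6, 46.7 to 73.8 TPM in intact mutants and 7.44 to 40.9 TPM in injured ones, fell by 1.92 ± 0.44 (SE, limma adjusted p 0.00339). Cdh4 fell by 1.11 ± 0.16 from a low level of 2.57 to 3.42 TPM. Cdh1, E-cadherin, rose by 1.27 ± 0.37, from 0 to 0.177 TPM in intact mutants to 0.268 to 3.58 TPM in injured ones. The catenins Ctnna1, Ctnnb1 and Ctnnd1 had differences between 0.03 and 0.20 and were not called. In the wild type 0 of the 9 were called and 3 had an unadjusted limma p under 0.05 (17.2% of all genes).

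Some markers of other cell types differed with injury as well, in a comparison that called 30.8% of all tested genes (3168 higher and 4270 lower). Of 6 macrophage genes 5 rose in injured mutants, and their summed level was 113.8 to 161.4 TPM in intact mutants and 323.1 to 1859 TPM in injured ones (110.2 to 130.6 and 151.4 to 1281 TPM in the wild type). Of 7 tested neutrophil genes 3 rose, with sums of 6.30 to 11.3 TPM and 12.04 to 726.1 TPM (11.9 to 18.2 and 9.58 to 117.4 TPM in the wild type, Ly6g at 0 in both intact groups). Of 6 annulus and tendon genes 4 fell (Scx, Tnmd, Mkx and Fmod), with sums of 3778 to 4495 TPM and 1699 to 3280 TPM (3366 to 4410 and 4329 to 7874 TPM in the wild type). Of 6 cartilage genes 1 rose (Hapln1) and 1 fell (Comp), a share near that of all tested genes. The part of these cell types in the marker result was not tested.

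Skin was examined because it also makes keratins. The 8 epidermis genes summed to 10.2 to 31.4 TPM over all 16 libraries, most of it Krt10. Of the 4 tested ones, 2 fell in mutants, where 17.7% of all tested genes were called lower. Krt5, the defining keratin of basal epidermis, was at 0 in all libraries but 2 and at most 0.134 TPM, and Krt14 was at most 1.51 TPM. These 2 basal epidermal keratins were thus low, and the source of Krt8, Krt18 and Krt19 was not tested. Of 5 endothelial, 5 red blood cell, 5 muscle, 4 Schwann cell genes and 1 B cell gene tested, 0 were called for injury in mutants (30.8% of all tested genes). Endothelial sums were 2.12 to 8.69 TPM in intact and 9.38 to 61.7 TPM in injured mutants, and the Schwann cell sum reached 315.8 TPM in injured mutant 1, against 13.5 to 18.1 TPM in intact mutants.

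How the markers varied from mouse to mouse within groups was described by correlating deviations from the group means over the 16 libraries. Among brachyury, Krt8, Krt18, Krt19 and Cdh2 the 10 correlations lay between 0.848 and 0.987, with a median of 0.920, and between 0.794 and 0.980 without injured mutant 1. Cd24a correlated with these 5 genes at 0.348 to 0.688, and at 0.470 to 0.751 without that mouse. Foxa1 correlated with them at 0.448 to 0.795, and at 0.704 to 0.923 without it. Foxa2 correlated with them at 0.181 to 0.571, and at 0.676 to 0.830 without it. These values come from the same libraries and share their cell makeup and scaling, so they describe the libraries only.

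The 3 genes most like each marker in these deviations, taken from genes that averaged 5 TPM or more, were found by rule. For brachyury they were Jph2 (0.987), Sparcl1 (0.979) and Arhgef16 (0.978). For Krt19 they were Car3 (0.991), Jph2 (0.978) and Krt80 (0.972), and for Krt8 Sparcl1, Car3 and Jph2 (0.959 to 0.962). Krt18 went most closely with Lamb3, a laminin chain (0.967), Dsp (0.956) and Klf5 (0.949). Cdh2 had Ankrd27 (0.987), Disp1 (0.984) and Pde1a (0.982). Cd24a had Snapin (0.981), Glod4 and Fto, Foxa1 had Sort1 (0.963), Cant1 and Gldn, and Foxa2 had Rtp4 (0.914), Ube2e1 and Ube3b. Brachyury, Krt8 and Krt19 shared Jph2 among their closest genes, and Krt18, Cdh2, Cd24a and the forkhead factors shared none with them.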

How the data were processed

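Bulk RNA sequencing of disc tissue from 16 mice in 4 groups was used, with groups and mouse numbers from the sample titles, since the genotype field of the wild type is cut short. Per the labels' protocols, RNA came from Trizol extraction and was freed of ribosomal RNA before library making with a NEBNext kit, whereas the molecule field reads polyA RNA. The authors deposited 1 table of TPM values over 49315 genes, each column summing to 1000000. Per the submitters' processing notes, GRCm38 and bcl2fastq 2.20 were used. The aligner, the counting method and the use of strand are not given in the sources used here. TPM corrects for gene length and library total only, so a few abundant genes can shift all others.

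Depth was approximated from the TPM that a single read contributes, given each gene's union exon length (GENCODE M21, 99.5% of identifiers found). Of values under 20 such reads, 94.1% to 95.0% per library lay within 0.05 of a whole number. Libraries implied 10196951 to 24824252 reads, median 13300753.5. The errors given are between mice and no counting intervals were derived.

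Values of log2(TPM + 1) were fitted with limma 3.58.1 (R 4.3.3; lmFit, then eBayes with trend) over the 24188 genes that reached 1 TPM in 3 or more libraries. All 16 libraries entered 1 fit, from which 5 contrasts were taken. Benjamini-Hochberg adjustment ran over all tested genes of each contrast (threshold 0.05), and standard errors are unmoderated. Keratin ratios, as differences of log2(TPM + 1) within a library, were compared by exact two-sided permutation over mice (scipy 1.17.1), adjusted over 8 tests. Similar transcripts were found with blastn 2.17.0. Members and gene lists may be named whatever their result, and they were chosen with earlier results of these data known. So were the tests. Same-numbered mice of different groups are different animals and were not paired. Alternatives were another pseudocount, other filters and scalings, no trend, sample weights, fits of fewer groups, a replicate block, mutants of 1 name type, each mouse left out and, chosen after seeing the data, voom on the implied reads. Sequences of Cdh2 are not shown.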

Additional observations from a re-analysis of the deposited data

Results flagged for a closer look

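In intact mutants, mouse 3 was the lowest of 4 mice by a gap larger than Dixon's 95% critical value for 4 samples in 4 markers. It had 1.995 TPM of Foxa2 (gap over range 0.844), 380.7 TPM of Krt8 (0.855), 337.3 TPM of Krt19 (0.836) and 59.76 TPM of Cdh2 (0.832). Chance flags about 1 in 20 groups, and 4 of 24 marker and group combinations were beyond the critical value here, all in this 1 mouse. The intact wild type was not among the groups checked. Deviations of Krt8, Krt19 and Cdh2 correlated at 0.848 to 0.985 with each other, and those of Foxa2 with them at 0.181 to 0.571. The 4 flags are thus not independent, and their number cannot be set against the rate of 1 in 20. Its Car3, at 3696 TPM against 7895 to 9402 TPM in the other intact mutants, was also the lowest of its group. Without this mouse 5 markers were called for injury in mutants instead of 4.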

How the results depend on the processing

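Injury in mutants called 4 markers, 2 with only the compared groups in the fit, 0 with only mutants named M, and 2 to 7 with each mouse left out (2 without intact mutant 1, 2 or 4 or injured mutant 3, 7 without injured mutant 4, 4 without injured mutant 1). The other alternatives gave 3 to 6. Among injured discs 0 markers were called between genotypes, and 0 to 2 with each mouse left out (2 without injured wild-type mouse 3). The other 3 comparisons called 0 markers under all alternatives run.

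The log2 Krt18 to Krt8 ratio difference for injury in mutants was 0.77 (exact permutation p 0.111, adjusted p 0.254). With each mouse left out it ranged from 0.55 to 1.04. The unadjusted exact permutation p then ran from 0.0286, without injured mutant 2, to 0.25. Between intact genotypes it ranged from -0.11 to 0.20, and that of Krt19 to Krt8 from -0.12 to 0.0067. Differences that changed sign were not called. Krt18 was 0.21 between intact genotypes with only mutants named A8 (-0.51 to 0.045 with each mouse left out) and 0.59 between injured genotypes with only those named M (-0.85 to 0.35). Foxa2 ranged from -0.26 to 0.65 for injury in the wild type and from -0.0214 to 0.78 between intact genotypes with each mouse left out. The interaction of Foxa1 was 0.0581 under quantile normalization (-0.33 to 0.11 with each mouse left out). That of Krt18 was 0.0613 with size factors by median of ratios, 0.12 under quantile normalization, 0.0872 with sample weights and 1.43 with only mutants named M (-0.54 to 0.66). That of Cd24a was -0.00195 under quantile normalization, -0.17 with sample weights and -0.48 with only mutants named A8 (-0.37 to 0.27). The cause of these changes was not tested.

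With the replicate block, 4 markers were called for injury in mutants and the interaction of Cd24a was -0.000312. Same-numbered mice did not deviate together (correlations from -0.22 to 0.08). The block gave 5 called genes for injury in the wild type, 6191 in mutants, 2 between intact and 11 between injured genotypes. Over all genes the comparisons called 28 (2 to 463 with each mouse left out, 4 to 77 otherwise), 7438 (5339 to 7970, 743 to 8559), 4 (1 to 7, 1 to 8), 222 (7 to 2272, 1 to 1070) and, for the interaction, 0 (0 to 15, 0 to 4). Of the calls between injured genotypes 20.7% were higher in mutants, 46.8% with median-of-ratios size factors, 34.4% under quantile normalization and 50.2% with only mutants named M. Foxa1, Foxa2 and Noto are limited by depth, at 11 to 82, 3 to 55 and 0 to 4 reads per library.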
